A study of Rhododendron with 15 samples.

Results

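Leaves held at 35 °C with melatonin were compared with leaves held at 35 °C without it, 3 libraries a side, so 6 of the 15 libraries of the series. The members were taken from the sample labels, and every gene in the deposited table was considered. The study measured polyadenylated RNA in leaves of the Rhododendron variety 'xiaotaohong' in 5 groups of 3: no melatonin at 25, 35 or 40 °C, and melatonin at 35 or 40 °C. Its title names melatonin and tolerance of high temperature as the subject. All groups are leaf of the same variety. The dose of melatonin, the way it was applied, the length of the heat treatment, the hour of harvest and the age of the plants were not given in the sources used here. Nor do the labels say whether libraries of a group came from separate plants, so the p-values measure spread among these libraries only, and that spread may be technical.

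Melatonin is an indoleamine that plants make from tryptophan by way of serotonin, in chloroplasts and mitochondria. It scavenges reactive oxygen itself and acts as a signal in plant cells, and in many species leaves given melatonin before or during heat keep more chlorophyll and show less oxidative damage. Moderate heat in leaves sets off the heat shock response, in which heat stress transcription factors switch on chaperones, and shifts carbon and water relations.

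The libraries without melatonin at 35 °C held 64813626 to 68267949 counts and those with melatonin 58101685 to 61664742. The groups also differed in breadth. Genes at 1 FPKM or more (FPKM is fragments scaled to transcript length and library size) numbered 19712 to 19806 without melatonin and 20472 to 20484 with it, and the 100 highest genes took 18.9% to 19.4% and 17.8% to 17.9% of the counts. Markers of leaf mesophyll were abundant in all 6 libraries, as the tissue label says, and none of the 21 was at 0 throughout. Their summed level was 20900 to 21750 FPKM without and 18340 to 18430 FPKM with melatonin. The 18 vascular markers, 1 of them at 0 throughout, summed to 497 to 510.0 FPKM without and 190.2 to 198 FPKM with melatonin. Nearly all of that fall lay in 1 gene, sieve element occlusion B-like MSTRG.14865. It had 367, 373 and 371 FPKM without and 61.0, 60.2 and 60.2 FPKM with melatonin, and the summed level of the other vascular markers hardly changed. Root and flower markers summed to 217 to 229.9 FPKM and 258 to 267 FPKM, and epidermis and guard cell markers to 305 to 311 FPKM and 319.7 to 327 FPKM. The part that cell make-up plays in the results below was not tested, and in whole leaves fewer cells of a type and less RNA per cell cannot be told apart. The melatonin groups hold no targeted gene that could check the labels.

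With melatonin at 35 °C, nitrite reductase, a nitrate transporter gene and 8 of 21 water channels rose. Rises outnumbered falls among WRKY factors (23 and 5 of 59), AP2/ERF factors (21 and 7 of 91) and phenylpropanoid enzymes (28 and 5 of 91), while most members of these lists did not pass the test. Falls outnumbered rises among photosynthesis and cytosolic translation genes, and the named ones fell by less than 2-fold. Of 26183 genes tested with edgeR's quasi-likelihood test, 5763 (22.0%) were called at an adjusted p under 0.05. Of these 2540 (9.70%) were higher and 3223 (12.3%) lower with melatonin. Among calls of at least 2-fold the balance turned, with 1028 genes (3.93%) higher and 176 (0.672%) lower. The FPKM of the groups did not overlap in 39.6% of the tested genes, with melatonin above in 6949 genes and below in 3417. Separate groups alone therefore do not set a gene apart.

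Direction followed the level of the transcript. Among the 271 tested genes with a mean of 200 FPKM or more, 36 were called higher and 150 lower, with a median log2 fold change of -0.20. In the class from 10 to 50 FPKM, 809 of 7655 were higher and 1743 lower. Between 0.5 and 2 FPKM, 327 of 3718 were higher and 68 lower, and the median was 0.13. The median over all tested genes was 0.00. These values are relative to the zero point of TMM scaling, which rests on a trimmed mean of log ratios between libraries. In genes of at least 5 FPKM in both groups, log2 ratios of the deposited FPKM lay 0.10 above the fitted values. On log2(FPKM + 1), limma called 4630 genes higher and 2118 lower, so that 68.6% of its calls were higher against 44.1% in the main test. Counts for gene lists move with this choice too, and are given on both scales where they differ most.

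**Figure D1:**
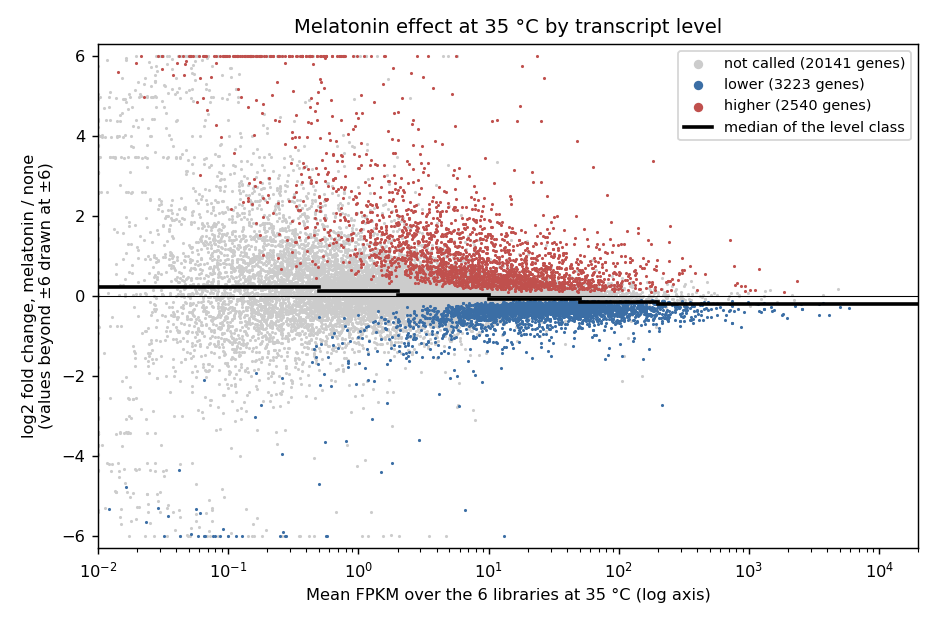
Each point is a tested gene, with its mean FPKM over the 6 libraries at 35 °C on a log axis and its log2 fold change (melatonin over none) on the other axis; red and blue mark genes called higher and lower, black steps the median of each level class, values beyond 6 are drawn at 6, and genes at 0 in all 6 libraries are not drawn. Blue points gather at high levels, where the median of the class from 200 FPKM is -0.20, and red points with large changes lie at low and middle levels.

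Nitrate assimilation held some of the largest changes. Nitrite reductase (MSTRG.19778, chromosome 11, 30009532 to 30013043), which reduces nitrite to ammonium in the chloroplast, stood at 12.4, 10.5 and 11.01 FPKM in untreated leaves against 115, 116 and 113 FPKM under melatonin. All libraries with melatonin were far above those without, and replicates differed by little (from 11.3 ± 1.002 to 115 ± 1.19 FPKM, mean ± SD, n = 3; log2 change 3.24 ± 0.09, adjusted p = 1.8e-11). Its level without heat or melatonin was 13.03 ± 1.23 FPKM at 25 °C. Ferredoxin-3 (MSTRG.22355, chromosome 13, 12325616 to 12326089), of the family of iron-sulfur proteins that hand electrons to such reductases, had untreated levels of 97.4, 113 and 111 FPKM and treated levels of 377, 395 and 386 FPKM. The groups were again fully apart (log2 change 1.75 ± 0.07, adjusted p = 9.6e-10). A high-affinity nitrate transporter 3.1-like gene (MSTRG.21226), whose family partners the root nitrate carriers in Arabidopsis, rose from 24.5 ± 0.947 to 83.8 ± 3.05 FPKM (log2 change 1.67 ± 0.12, adjusted p = 2.3e-07). An ammonium transporter (MSTRG.9862) and the sulfate transporter 1.3 gene (MSTRG.13205) rose less, with log2 fold changes of 0.71 ± 0.09 and 0.46 ± 0.06.

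Sulfate activation went the other way. The ATP sulfurylase gene MSTRG.24167, whose enzyme makes the activated form of sulfate, had 11.9, 10.6 and 12.5 FPKM in the untreated libraries and 3.02, 3.34 and 3.88 FPKM in the treated ones, with no overlap between groups (log2 change -1.88 ± 0.12, adjusted p = 6.8e-08). A second ATP sulfurylase gene (MSTRG.24690) fell from 5.93 ± 0.831 to 2.21 ± 0.602 FPKM, and sulfite reductase (MSTRG.23094), the later step towards sulfide, fell from 63.8 ± 0.616 to 50.6 ± 0.668 FPKM (log2 fold changes -1.53 ± 0.21 and -0.44 ± 0.03). Glutamine synthetase (MSTRG.7879), which fixes ammonium into glutamine, fell from 58.6 ± 5.99 to 47.5 ± 1.63 FPKM (-0.41 ± 0.07). Meanwhile a SULFUR DEFICIENCY-INDUCED 1-like gene (MSTRG.21891), named for its induction when sulfate is short, rose from 0.455 ± 0.261 to 7.32 ± 0.900 FPKM (log2 change 3.88 ± 0.34, adjusted p = 1.5e-06). Over the whole nitrogen and sulfur list, 14 of 56 tested members were called higher and 5 lower (median log2 fold change 0.05), beside 9.70% and 12.3% of all genes.

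Water channels were among the groups with the largest share of rises. Of the 21 tested aquaporins, which let water and small solutes through membranes, 8 were called higher and 2 lower, with a median log2 fold change of 0.95. The tonoplast aquaporin TIP1-1-like gene (MSTRG.1618, chromosome 1, 39004250 to 39006523) had 72.2, 64.7 and 62.7 FPKM in untreated leaves against 214, 211 and 216 FPKM under melatonin (log2 change 1.58 ± 0.05, adjusted p = 1.9e-10). Every library with melatonin lay above every one without, and above the 25 °C mean of 107 ± 2.91 FPKM. The plasma membrane gene PIP2-4-like (MSTRG.7420, chromosome 4, 24604244 to 24607745) stood at untreated levels of 61.2, 61.9 and 64.97 FPKM and treated levels of 221, 213 and 221 FPKM, again without overlap (log2 change 1.697 ± 0.12, adjusted p = 1.3e-07). TIP2-1-like (MSTRG.15171) rose from 100.3 ± 2.53 to 208 ± 6.06 FPKM, and the abundant AQU17 (MSTRG.5239) from 549.7 ± 31.1 to 989.6 ± 25.98 FPKM, with log2 fold changes of 0.95 ± 0.04 and 0.74 ± 0.05. NIP5-1 (MSTRG.4165), of the group that carries boric acid in Arabidopsis, rose by 1.11 ± 0.12 and a PIP2-2 gene (Rhsim04G0147500) by 1.04 ± 0.25.

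Other highly expressed aquaporins did not rise. The plasma membrane intrinsic protein gene MSTRG.16489 had 968, 885 and 883 FPKM in the untreated libraries and 1054, 1008 and 1056 FPKM in the treated ones (no overlap, yet not called; log2 change 0.08 ± 0.06, adjusted p = 0.37), and PIP2-8 (MSTRG.19937) had a log2 fold change of 0.01 ± 0.04 at a level of 678 ± 43.4 FPKM. Aquaporin 23 (MSTRG.8662) fell from 371 ± 8.24 to 259.9 ± 0.903 FPKM (log2 change -0.62 ± 0.06, adjusted p = 3.7e-06). PIP2-1 (MSTRG.22256) was called lower with overlapping groups, a log2 fold change of -0.15 ± 0.05 and an adjusted p of 0.044, a call lost in 8 of 12 alternative fits. The TIP-type gene Rhsim07G0110000 had 0 counts in all 3 libraries without melatonin and 1.07, 1.85 and 1.70 FPKM with it, so no fold is given. NIP6-1-like (Rhsim12G0188000), at 0.582 ± 0.103 FPKM with melatonin, was called higher, but the call was lost in 7 of 12 alternative fits. The other 9 tested aquaporins did not pass. Of the 21, 3 had no counts in the libraries without melatonin.

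**Figure D2:**
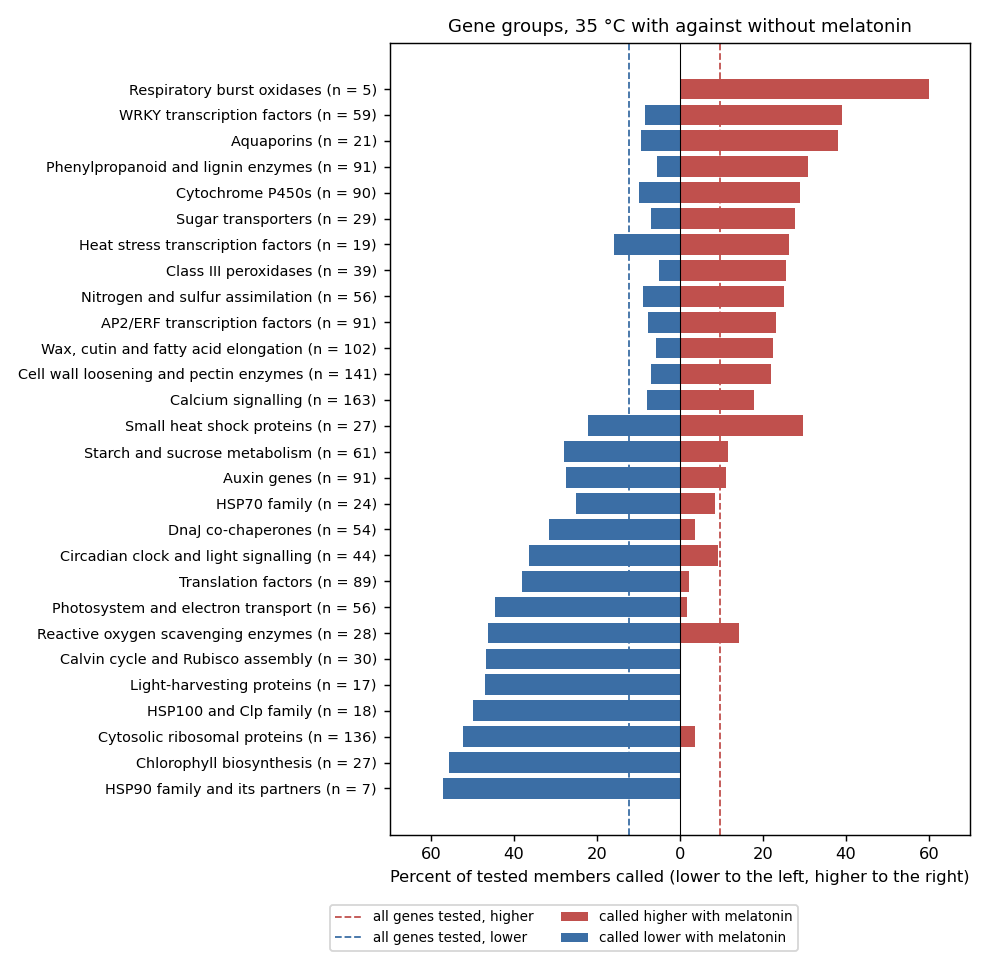
Bars give the percentage of tested members of each gene group called higher (red, right) or lower (blue, left) with melatonin at 35 °C; dashed lines mark the same percentages over all tested genes, 9.70% higher and 12.3% lower, and the groups shown are 28 of 75, picked after values were seen. Groups at the top lean to the right and groups of photosynthesis and translation lean to the left, as do DnaJ, HSP90 and HSP100 proteins, whereas small heat shock proteins hold 29.6% higher and 22.2% lower.

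Among transcription factors, rises were most frequent in the WRKY family, whose members regulate defence, stress and senescence genes. In the WRKY list 23 of 59 tested members were called higher and 5 lower (median log2 fold change 0.35). WRKY31 (MSTRG.22647) rose from 2.55 ± 0.196 to 12.3 ± 0.781 FPKM, WRKY48 (MSTRG.8121) from 8.84 ± 1.68 to 25.2 ± 0.783 FPKM and the more abundant MSTRG.10412 from 54.5 ± 4.92 to 143 ± 2.69 FPKM, with log2 fold changes of 2.17 ± 0.11, 1.404 ± 0.13 and 1.29 ± 0.08. Members also fell, among them a WRKY70 gene (MSTRG.5324) that went from 10.4 ± 0.892 to 5.41 ± 0.418 FPKM (-1.05 ± 0.12). In the AP2/ERF family, which holds ethylene and dehydration response factors, 21 of 91 tested members were called higher and 7 lower (median log2 fold change 0.44).

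The clearest single change by its adjusted p, with that of an undescribed gene given below, was in this family. ERF02 (MSTRG.18101, chromosome 10, 26273196 to 26274023) stood at 373, 366 and 372 FPKM in untreated leaves against 1057, 1053 and 1069 FPKM under melatonin. The treated libraries were all more than 2-fold above the untreated ones, and replicates differed little (log2 change 1.41 ± 0.03, adjusted p = 1e-12). RAP2-4-like (MSTRG.10628), a dehydration-responsive ERF in Arabidopsis, had untreated levels of 135, 130.3 and 123 FPKM and treated levels of 351, 349 and 358 FPKM (log2 change 1.34 ± 0.05, adjusted p = 2.6e-10). The ERF MSTRG.11070 was near 1 FPKM without melatonin and rose from 0.907 ± 0.137 to 20.4 ± 0.350 FPKM (log2 change 4.38 ± 0.22, adjusted p = 8.6e-09), with no library of either group inside the range of the other. ERF5-like (MSTRG.5378) and an AP2/ERF and B3 domain gene (MSTRG.23876), with 25 °C means of 19.7 ± 0.966 and 10.3 ± 0.244 FPKM, fell from 86.2 ± 3.298 to 46.99 ± 2.27 FPKM and from 80.7 ± 7.66 to 43.1 ± 1.07 FPKM.

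A bZIP factor (MSTRG.8727), of the basic leucine zipper class, had 22.6, 23.1 and 21.9 FPKM in the untreated libraries and 138, 137 and 142 FPKM in the treated ones (log2 change 2.52 ± 0.07, adjusted p = 3e-11). Its libraries with melatonin were also above the 25 °C mean of 80.1 ± 3.97 FPKM. A second member, bZIP11-like (MSTRG.19861), rose from 76.4 ± 1.03 to 147 ± 6.59 FPKM, and in the bZIP list 5 of 27 tested members were called higher and 1 lower (median log2 fold change 0.15). In the NAC family, which includes regulators of senescence, 8 of 40 tested members were called higher and 4 lower (median log2 fold change 0.17), led by MSTRG.17884 (from 4.74 ± 0.311 to 18.3 ± 0.600 FPKM). The MYB list (7 higher and 12 lower of 86) and the bHLH list (11 and 9 of 69) held calls in both directions, with shares in the MYB list of 8.14% and 14.0%, near the 9.70% and 12.3% of all genes. On log2(FPKM + 1), limma called 17 higher and 7 lower in the MYB list and 18 and 8 in the bHLH list.

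Heat stress transcription factors, the direct regulators of chaperone genes, moved in both directions: 5 of 19 tested members were called higher and 3 lower (median log2 fold change 0.19). HSF B3 (MSTRG.4397, chromosome 3, 4451290 to 4454477), of the B class that lacks the activator motif, had 16.2, 18.5 and 16.8 FPKM in untreated leaves against 55.8, 56.2 and 62.6 FPKM under melatonin. Libraries with melatonin were all more than 2-fold higher, with no overlap (log2 change 1.66 ± 0.07, adjusted p = 2.6e-09). A factor described only as a heat shock factor protein (MSTRG.14339) rose from 6.17 ± 0.608 to 15.9 ± 0.546 FPKM (log2 change 1.26 ± 0.08, adjusted p = 9.2e-08), and an A-3-like gene (Rhsim03G0081300) rose from a low level (from 0.362 ± 0.138 to 1.33 ± 0.195 FPKM, 1.77 ± 0.30). A B-2a-like gene (MSTRG.5488) fell from 39.6 ± 5.16 to 20.98 ± 1.75 FPKM (log2 change -1.02 ± 0.09, adjusted p = 1e-06), whereas the other B-2a-like gene (Rhsim13G0177200) rose from 0.189 ± 0.0450 to 1.38 ± 0.205 FPKM.

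Other A-class factors, the activating class in Arabidopsis and tomato, changed little or were not called. The A-1-like gene (Rhsim09G0213400) had untreated levels of 7.996, 7.06 and 7.59 FPKM and treated levels of 7.32, 8.69 and 8.03 FPKM, overlapping between groups (log2 change -0.02 ± 0.11, adjusted p = 0.94). HSF30 (MSTRG.18818), an A-2 type factor in tomato, had a log2 fold change of -0.36 ± 0.14 with an adjusted p of 0.082, and an A-6b-like gene (MSTRG.2066) 0.19 ± 0.20. A-5-like (MSTRG.2709) was called slightly lower (-0.23 ± 0.05, 0.0054), as was MSTRG.18634 (-0.21 ± 0.07), but their calls were lost in 3 of 12 and 9 of 12 alternative fits. The B-4-like gene Rhsim07G0227900 rose to 3.000 ± 0.335 FPKM, a call lost in 3 of 12.

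The chaperones did not follow one direction. Among small heat shock proteins, which hold unfolding proteins in a refoldable state, 8 of 27 tested members were called higher and 6 lower (median log2 fold change 0.00). The 17.8 kDa class I gene (MSTRG.16626, chromosome 9, 29987638 to 29988396) had 103, 101 and 106 FPKM in the untreated libraries and 188, 187 and 188 FPKM in the treated ones, with tight and separate groups (log2 change 0.75 ± 0.06, adjusted p = 5.5e-07). The 22.0 kDa class IV gene (MSTRG.19351) rose from 70.8 ± 11.8 to 152 ± 4.31 FPKM and HSP17.7 (MSTRG.8741) from 225 ± 25.1 to 382 ± 11.4 FPKM (log2 fold changes 0.99 ± 0.12 and 0.65 ± 0.08). Conversely the 18.5 kDa class I gene (MSTRG.22117), the highest of those named, fell from 639 ± 35.5 to 495 ± 22.3 FPKM, and an HSP20-like gene (MSTRG.13749) from 227 ± 10.3 to 181 ± 2.92 FPKM (-0.47 ± 0.07 and -0.43 ± 0.07).

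The ATP-driven chaperones were mostly lower or not called. HSP83-like (MSTRG.5596, chromosome 3), a cytosolic HSP90 that matures signalling proteins, had 443, 439 and 449 FPKM in untreated leaves against 309.9, 295 and 287 FPKM under melatonin, without overlap (log2 change -0.68 ± 0.03, adjusted p = 8.3e-10). With Endoplasmin (MSTRG.23406), the HSP90 of the endoplasmic reticulum, at -0.36 ± 0.03, 4 of 7 genes of HSP90 and its partners were lower and none higher. In the HSP100 and Clp list, which holds disaggregases and protease subunits, 9 of 18 were lower and none higher (median -0.21), against 4 lower (median -0.08) with limma on log2(FPKM + 1). Mitochondrial HSP70 (MSTRG.8897) fell from 92.5 ± 3.84 to 71.5 ± 1.35 FPKM (-0.48 ± 0.03). Over the HSP70 list 2 were higher and 6 lower of 24, with a median of -0.07 that turned to 0.02 on log2(FPKM + 1). The shares lower were 57.1% for HSP90 and partners, 50.0% for HSP100 and Clp and 25.0% for HSP70, beside 12.3% of all tested genes. Genes of high level in general often fell, with 46.3% of those from 50 to 200 FPKM and 55.4% of those from 200 FPKM called lower.

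DnaJ proteins stimulate the ATPase of HSP70. In this list 2 of 54 tested members were called higher and 17 lower (median log2 fold change -0.12), and limma on log2(FPKM + 1) called 6 higher and 10 lower. In the main test the shares were 3.7% higher and 31.5% lower, beside 9.70% and 12.3% of all tested genes. A DnaJ subfamily B-like gene (MSTRG.15866, chromosome 9, 12097252 to 12099928) had untreated levels of 41.9, 44.6 and 44.1 FPKM and treated levels of 17.7, 16.3 and 15.7 FPKM, with no overlap (log2 change -1.501 ± 0.06, adjusted p = 1.4e-09). DnaJ 11-like (MSTRG.19915) fell from 239 ± 39.8 to 103 ± 0.978 FPKM, while another DnaJ 11-like gene (MSTRG.11701) rose from 71.5 ± 6.11 to 115 ± 5.29 FPKM.

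**Figure D3:**
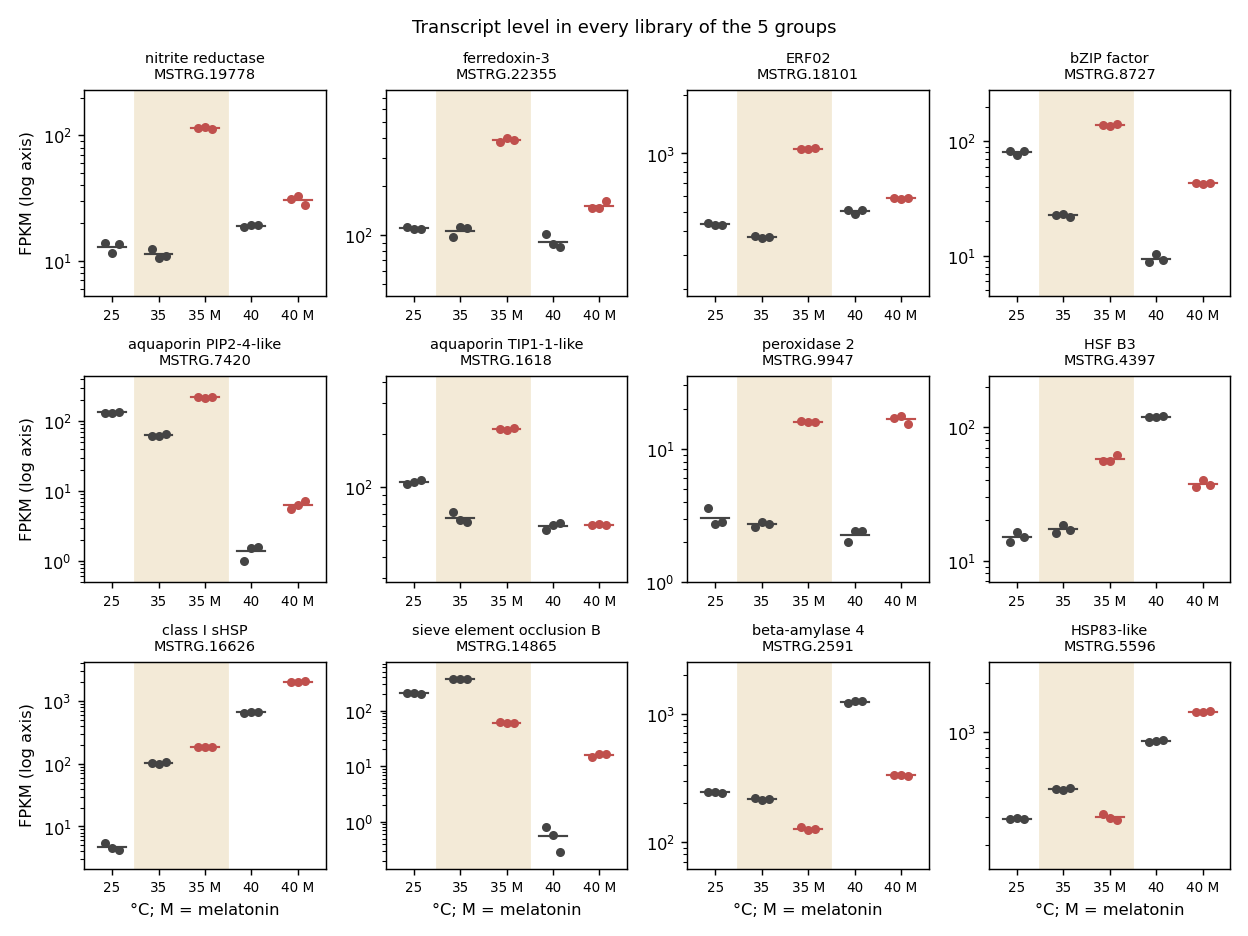
FPKM on a log axis in each of the 15 libraries (points) and the group mean (line) for 12 genes picked after values were seen, at 25, 35 and 40 °C without melatonin (grey) and at 35 and 40 °C with it (red, M); the shaded band marks the comparison at 35 °C. In all 12 panels the 3 melatonin libraries at 35 °C lie apart from the 3 without, above them in the first 9 and below them for sieve element occlusion B, beta-amylase 4 and HSP83-like.

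Enzymes that make phenylpropanoids, the precursors of lignin and flavonoids, rose more often than they fell: 28 of 91 tested members were called higher and 5 lower (median log2 fold change 0.27). The calls covered successive steps. Phenylalanine ammonia-lyase (MSTRG.7406), the entry enzyme, had 5.29, 4.91 and 4.46 FPKM in the untreated libraries and 14.2, 15.1 and 14.4 FPKM in the treated ones (log2 change 1.47 ± 0.11, adjusted p = 2.4e-07). Cinnamate 4-hydroxylase (MSTRG.1855), the second step, rose from 20.2 ± 0.286 to 48.4 ± 1.68 FPKM, and the lignin branch enzymes cinnamoyl-CoA reductase (MSTRG.21383) and cinnamyl alcohol dehydrogenase (MSTRG.19736) from 4.01 ± 0.430 to 13.8 ± 1.03 FPKM and from 25.3 ± 1.01 to 53.6 ± 1.47 FPKM. For these 3 the groups did not overlap, and the log2 fold changes were 1.15 ± 0.05, 1.68 ± 0.12 and 0.98 ± 0.07. A cytochrome P450 84A1-like gene (MSTRG.18463), the family of ferulate 5-hydroxylase in Arabidopsis, rose by 1.02 ± 0.10. A pair of 4-coumarate ligase-like genes fell (MSTRG.20212, -0.27 ± 0.04; MSTRG.1852, -0.59 ± 0.11).

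Flavonoid enzymes were less uniform, with 11 higher and 7 lower of 75. Their shares, 14.7% and 9.33%, stood beside 9.70% and 12.3% of all tested genes. Chalcone synthase (MSTRG.13896), the first committed enzyme, rose from 1.23 ± 0.573 to 5.71 ± 0.333 FPKM (log2 change 2.11 ± 0.27, adjusted p = 4.8e-05), while chalcone isomerase (MSTRG.5314) fell from 79.2 ± 1.51 to 65.00 ± 1.91 FPKM. An isoflavone reductase-like gene (MSTRG.10231, chromosome 6, 3714180 to 3730239) had 1.496, 1.65 and 1.13 FPKM in untreated leaves against 32.4, 31.97 and 30.9 FPKM under melatonin, and no library of one group came near the other (log2 change 4.37 ± 0.18, adjusted p = 9.8e-10).

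Class III peroxidases, secreted enzymes that couple lignin monomers and also make or use hydrogen peroxide, were called higher in 10 and lower in 2 of 39 cases (median 0.51). Entries that were not class III peroxidases, some of them called lower, had been taken off this list after values were seen. Peroxidase 2 (MSTRG.9947) had untreated levels of 2.62, 2.81 and 2.72 FPKM and treated levels of 16.2, 15.7 and 15.7 FPKM (log2 change 2.44 ± 0.11, adjusted p = 3.7e-09). The largest rise among described genes of at least 5 FPKM was in a peroxidase too. MSTRG.5298 had 0.130, 0 and 0 FPKM in the untreated libraries and 11.8, 9.91 and 11.97 FPKM in the treated ones, where the group without melatonin held 12 counts in a single library. MSTRG.14359 stood at 0.0465, 0.103 and 0 FPKM in untreated leaves against 5.97, 5.92 and 4.98 FPKM under melatonin. The log2 fold changes of these 2 genes, 7.798 ± 0.90 and 6.54 ± 0.85, rest on few counts without melatonin. The more abundant MSTRG.1842 rose from 66.4 ± 0.647 to 121 ± 2.46 FPKM (0.76 ± 0.04). Reads of such families can be shared between close copies, which leaves the split between single members uncertain.

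NADPH oxidases, which produce superoxide at the plasma membrane, gave 3 rises among 5 tested genes and no fall. NADPH oxidase A (MSTRG.15003) went from 2.81 ± 0.528 to 6.96 ± 0.477 FPKM and a respiratory burst oxidase gene (Rhsim02G0236300) from 0.550 ± 0.0341 to 4.23 ± 0.0472 FPKM (1.203 ± 0.14 and 2.83 ± 0.28). Enzymes that remove reactive oxygen were lower in 13 and higher in 4 of 28 cases, and in 9 and 5 with limma on log2(FPKM + 1). The share lower, 46.4%, stood beside 12.3% of all tested genes and 46.3% of those from 50 to 200 FPKM. A catalase gene (MSTRG.18342) had untreated levels of 477, 473 and 481 FPKM and treated levels of 378, 369.6 and 369 FPKM (log2 change -0.46 ± 0.03, adjusted p = 1.5e-08). The plastid 2-Cys peroxiredoxin BAS1-like gene (MSTRG.4691) and a glutathione reductase (MSTRG.2051) fell by similar amounts (-0.56 ± 0.04 and -0.48 ± 0.04). Ascorbate peroxidase (MSTRG.1696) was an exception and rose from 235 ± 2.25 to 334 ± 0.639 FPKM (log2 change 0.40 ± 0.03, adjusted p = 3.7e-07).

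Glutathione S-transferases, which conjugate glutathione to reactive compounds, were called higher in 10 and lower in 4 of 42 cases. Their shares were 23.8% and 9.52%, beside 9.70% and 12.3% of all tested genes. Neighbouring genes on chromosome 4 differed in direction: MSTRG.6508 fell from 120.1 ± 1.97 to 46.6 ± 0.912 FPKM (-1.47 ± 0.08) and MSTRG.6514 rose from 143 ± 3.38 to 243 ± 3.57 FPKM (0.66 ± 0.06).

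Falls among photosynthesis transcripts were small, and genes of high level in general often fell. None of the 17 light-harvesting genes was higher and 8 were lower, as were 25 photosystem genes and 14 of 30 Calvin cycle and Rubisco assembly genes. Of all tested genes, 46.3% of those from 50 to 200 FPKM and 55.4% of those from 200 FPKM were called lower. With limma on log2(FPKM + 1), 1 light-harvesting gene was higher and 5 were lower, and the photosystem list held 3 higher and 16 lower of 56. Entries taken off the photosystem list after values were seen included more rises than falls. Rubisco activase 2 (MSTRG.22136, chromosome 13, 7741349 to 7745360), which frees Rubisco of inhibitory sugar phosphates, had 4614, 4642 and 4642 FPKM in the untreated libraries and 3594, 3580.0 and 3578 FPKM in the treated ones. The groups were far apart beside the spread among replicates (log2 change -0.47 ± 0.02, adjusted p = 2.6e-10). Chlorophyll a-b binding protein 8 (MSTRG.6506) stood at 3809, 3950.0 and 3878 FPKM in untreated leaves against 3001, 2950.1 and 2986 FPKM under melatonin (log2 change -0.49 ± 0.02, adjusted p = 2.9e-09). Sedoheptulose-1,7-bisphosphatase (MSTRG.16649), of the regeneration phase, and glutamate-1-semialdehyde aminomutase (MSTRG.21299), an early chlorophyll enzyme, fell with log2 changes of -0.61 ± 0.03 and -0.63 ± 0.03. The mesophyll marker sum given above fell too, and overlaps with these lists.

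Translation genes fell more often than they rose. Of 136 cytosolic ribosomal protein genes 71 were lower and 5 higher, and of 89 translation factors 34 and 2. The shares lower were 52.2% and 38.2%, beside 12.3% of all tested genes. Among all tested genes from 50 to 200 FPKM 46.3% were called lower, and among those from 200 FPKM 55.4%. With limma on log2(FPKM + 1), the counts were 54 and 6 for ribosomal proteins and 20 and 6 for translation factors, whose median was then -0.02. Elongation factor 1-alpha-like (MSTRG.1678), which brings aminoacyl-tRNA to the ribosome, had untreated levels of 784, 762 and 760.5 FPKM and treated levels of 564, 531 and 531 FPKM (log2 change -0.61 ± 0.03, adjusted p = 6.9e-09). Ribosomal protein L4 (MSTRG.23759) fell from 197 ± 1.93 to 141 ± 4.300 FPKM, and aminoacyl-tRNA synthetases were lower in 20 and higher in 5 of 80 cases (14 and 7 with limma). Proteasome genes depended on the scale, with 2 higher and 1 lower of 48 in the main test and 13 higher and 0 lower with limma on log2(FPKM + 1).

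In carbohydrate metabolism, 3 beta-amylase genes fell. Beta-amylase 4 (MSTRG.2591, chromosome 2, 7305913 to 7313019), of the family that releases maltose from starch, had 221, 213 and 215 FPKM in the untreated libraries and 129.8, 123 and 127 FPKM in the treated ones, fully separate (log2 change -0.88 ± 0.03, adjusted p = 1.4e-10). The beta-amylase MSTRG.2329 fell from 95.8 ± 1.94 to 61.1 ± 3.32 FPKM and chloroplast beta-amylase 3 (MSTRG.18567) from 18.96 ± 2.002 to 8.495 ± 1.07 FPKM. The amylose-making enzyme gene for granule-bound starch synthase (MSTRG.5792) was also lower, going from 274 ± 2.26 to 199 ± 0.797 FPKM. Over starch and sucrose metabolism as a whole, 7 of 61 members were higher and 17 lower, and the median of -0.07 turned to 0.03 on log2(FPKM + 1), where 14 were higher and 12 lower. Entries taken off this list after values were seen included more rises than falls, so the removal favoured falls. A sucrose transporter rose (MSTRG.10730, from 7.88 ± 1.24 to 13.1 ± 1.17 FPKM), and of 29 sugar transporters 8 were higher and 2 lower. For sugar transporters these are 27.6% and 6.9%, beside 9.70% and 12.3% of all tested genes.

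The raffinose family oligosaccharides protect cells in drought and heat. Of their 13 enzyme genes 5 rose and 2 fell. Galactinol synthase 1 (MSTRG.20857), the first step and one of the most abundant transcripts, had 6032, 6352 and 6260.5 FPKM in untreated leaves against 5529, 5305 and 5422 FPKM under melatonin and fell (log2 change -0.30 ± 0.02), whereas another galactinol synthase (MSTRG.19247) and a galactinol-sucrose galactosyltransferase (MSTRG.7103) rose by 0.41 ± 0.06 and 0.63 ± 0.05.

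Genes of 1 phloem family fell, by unequal amounts. Sieve element occlusion B-like (MSTRG.14865, chromosome 8, 26951012 to 26956715), whose family forms the filaments of sieve elements, had untreated levels of 367, 373 and 371 FPKM and treated levels of 61.02, 60.2 and 60.2 FPKM. All treated libraries were far below the untreated ones, and replicates were nearly identical (log2 change -2.72 ± 0.15, adjusted p = 2.4e-08). A second such gene in the same region (MSTRG.14869) fell from 10.1 ± 1.13 to 1.63 ± 0.331 FPKM (-2.74 ± 0.29), and another gene of the family on that chromosome (MSTRG.13973) had a log2 change of -0.55 ± 0.12. PHLOEM PROTEIN 2-like genes did not move together, with MSTRG.22514 rising from 10.3 ± 0.674 to 20.8 ± 0.722 FPKM and MSTRG.10489 falling from 9.91 ± 0.819 to 7.06 ± 0.188 FPKM. In the vascular marker list 2 were higher and 8 lower of 17, and MSTRG.14865 alone went from 370.3 ± 3.396 to 60.5 ± 0.489 FPKM of its summed level.

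Hormone genes changed by family. Auxin genes fell more often than they rose (25 and 10 of 91, and 25 and 17 with limma on log2(FPKM + 1)). An auxin response factor (MSTRG.22250), a SAUR growth gene (MSTRG.16927) and AUX/IAA26 (MSTRG.21495), a repressor of auxin signalling, fell with log2 changes of -0.57 ± 0.05, -0.53 ± 0.05 and -0.49 ± 0.05. In abscisic acid metabolism the pair of NCED1 genes, for the enzyme that sets the rate of synthesis, rose from low levels. MSTRG.6520 had 0.466, 0.253 and 0.525 FPKM in the untreated libraries and 4.298, 4.57 and 4.46 FPKM in the treated ones (log2 change 3.304 ± 0.35, adjusted p = 8.8e-06), and its neighbour MSTRG.6519 rose from 0.383 ± 0.155 to 4.34 ± 0.829 FPKM, and whether the 2 entries belong to 1 transcript was not tested. Abscisic acid receptor-like genes MSTRG.16728 and MSTRG.9907 rose by 2.13 ± 0.25 and 1.097 ± 0.18. In the whole abscisic acid list 7 of 39 tested members were called higher and 4 lower (17.9% and 10.3%, median log2 fold change 0.04).

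Ethylene, cytokinin and gibberellin lists held more rises than falls among their calls. In the ethylene list 4 of 24 tested members were higher and 1 lower (16.7% and 4.17%). The gibberellin list held 7 higher and 2 lower of 21 (33.3% and 9.52%), yet its median log2 fold change was -0.02. Over all genes the shares were 9.70% and 12.3%. In all, 3 ACC oxidase genes, for the last step of ethylene synthesis, were higher, MSTRG.4724 with 1.96, 1.94 and 2.86 FPKM in untreated leaves against 9.46, 11.3 and 13.1 FPKM under melatonin (log2 change 2.22 ± 0.20, adjusted p = 1.6e-06). Response regulators of the cytokinin pathway rose, MSTRG.14769 from 9.69 ± 1.07 to 42.5 ± 0.547 FPKM and ORR9-like MSTRG.4491 from 31.5 ± 1.21 to 64.1 ± 2.02 FPKM, among 7 higher and 3 lower of 37. The receptor gene GID1b (MSTRG.21719) rose from 25.6 ± 1.96 to 41.7 ± 1.199 FPKM, and so did 2 genes for gibberellin-inactivating 2-oxidases (MSTRG.11355, from 2.58 ± 0.492 to 5.56 ± 0.369 FPKM, and MSTRG.16711, from 5.03 ± 0.0955 to 10.3 ± 0.991 FPKM). Jasmonate genes split, with allene oxide synthase (MSTRG.10292) rising by 0.70 ± 0.12 and an abundant lipoxygenase (MSTRG.23125) falling from 253 ± 8.32 to 156 ± 4.96 FPKM.

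Surface and wall genes also rose more often than they fell. In wax, cutin and fatty acid elongation 23 of 102 tested members were called higher and 6 lower (median log2 fold change 0.23). A 3-ketoacyl-CoA synthase (MSTRG.7783), which elongates wax precursors, had untreated levels of 4.31, 3.87 and 3.87 FPKM and treated levels of 16.2, 14.8 and 17.2 FPKM (log2 change 1.895 ± 0.18, adjusted p = 2.8e-06), and an ECERIFERUM-like wax gene (MSTRG.10533) rose from 8.004 ± 0.744 to 27.3 ± 1.71 FPKM. Expansin-A1 (MSTRG.20456), which loosens walls, rose from 88.2 ± 6.201 to 249 ± 4.93 FPKM (log2 change 1.39 ± 0.07, adjusted p = 9.2e-09), as 1 of 31 wall loosening and pectin genes called higher, against 10 lower, of 141. Calcium signalling genes were higher in 29 and lower in 13 of 163 cases (17.8% and 7.98%, beside 9.70% and 12.3% of all tested genes). NLR resistance genes had shares of calls under the background (5 higher and 6 lower of 174).

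Other large rises were spread over secondary metabolism and the leaf surface. The phylloplanin-like gene (MSTRG.2278, chromosome 2, 833681 to 834640), of a family of secreted surface proteins described in tobacco, had 1.204, 0.907 and 1.18 FPKM in the untreated libraries and 47.7, 55.4 and 54.8 FPKM in the treated ones (log2 change 5.46 ± 0.60, adjusted p = 1.3e-05). Daurichromenic acid synthase (MSTRG.16335), an enzyme of meroterpenoid synthesis described in a Rhododendron, rose from 0.501 ± 0.197 to 10.5 ± 1.01 FPKM (4.26 ± 0.41). A berberine bridge enzyme-like gene (MSTRG.22433) and a P450 named for pterocarpan hydroxylation (MSTRG.7088) rose to 6.204 ± 0.425 and 7.28 ± 0.967 FPKM from under 0.5. The plastid hydroxyethylthiazole kinase gene (MSTRG.20582) stood high in 1 library only, with 0.777, 1.37 and 0.790 FPKM in untreated leaves against 1.55, 63.7 and 1.51 FPKM under melatonin, and its call was lost in 4 of 12 alternative fits, as was that of a molybdopterin synthase subunit gene (MSTRG.20009) in 5 of 12.

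Among the largest falls, a lipid phosphate phosphatase (MSTRG.11066) had untreated levels of 26.6, 28.6 and 23.5 FPKM and treated levels of 0.135, 0 and 0.501 FPKM, separate groups with a log2 fold change of -7.01 ± 1.68. A short-chain dehydrogenase (MSTRG.11182) had 9.65, 13.7 and 14.9 FPKM in the untreated libraries and 0.483, 0.0330 and 0.467 FPKM in the treated ones, and its call was lost in 6 of 12 fits. SPIRAL1-like (MSTRG.4009), of a family that shapes cortical microtubules in Arabidopsis, fell from 14.3 ± 1.32 to 3.47 ± 1.28 FPKM, and REVEILLE (MSTRG.18265), a clock-associated MYB-like factor, from 93.95 ± 6.11 to 47.1 ± 1.84 FPKM (-1.102 ± 0.05). In the clock and light list 16 were lower and 4 higher of 44 (10 and 6 with limma on log2(FPKM + 1)). In the main test the shares were 36.4% lower and 9.09% higher, beside 12.3% and 9.70% of all tested genes. Whether the groups were harvested at the same hour is not given.

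Genes of tryptophan and melatonin synthesis, listed together from chorismate onward, changed by less than 2-fold where called. Of 12 tested genes 1 was higher and 4 lower (8.33% and 33.3%, beside 9.70% and 12.3% of all genes). The median was -0.13, and limma on log2(FPKM + 1) called 1 higher and 1 lower. The caffeic acid 3-O-methyltransferase MSTRG.4150 had 6.54, 7.37 and 6.59 FPKM in untreated leaves against 13.6, 12.98 and 11.8 FPKM under melatonin (log2 change 0.80 ± 0.11, adjusted p = 0.00014). In Arabidopsis and rice such an enzyme also methylates N-acetylserotonin, the last step to melatonin. MSTRG.6253, like MSTRG.9862 and MSTRG.20212 above, joins 2 gene names in the table. Anthranilate synthase alpha 2-like (MSTRG.22080), the entry enzyme, fell from 17.2 ± 1.52 to 14.7 ± 0.841 FPKM (-0.34 ± 0.07). Indole-3-glycerol phosphate synthase (MSTRG.6490), a phosphoribosyltransferase (MSTRG.14810) and a tryptophan synthase beta 2-like gene (MSTRG.6253) were called lower with log2 changes of -0.20 ± 0.05, -0.24 ± 0.07 and -0.32 ± 0.08, calls lost in 6 of 12, 4 of 12 and 4 of 12 alternative fits.

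Genes with no product description were among those with the smallest adjusted p. MSTRG.4147 (chromosome 2, 44731083 to 44731781) had untreated levels of 29.4, 30.2 and 30.7 FPKM and treated levels of 340.0, 327 and 349.9 FPKM (log2 change 3.39 ± 0.07, adjusted p = 1.2e-12), and its 25 °C mean was 372 ± 18.3 FPKM. MSTRG.13569 rose from 5.77 ± 0.557 to 44.6 ± 2.04 FPKM, while MSTRG.8080 fell from 223 ± 9.72 to 81.1 ± 3.800 FPKM and MSTRG.23199 from 231 ± 4.33 to 152 ± 5.01 FPKM.

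The effect of melatonin at 40 °C, measured in 6 other libraries, was set beside that at 35 °C. It was much wider, with 8605 genes higher (32.9%) and 6861 lower (26.2%), and the effects differed between temperatures in 12694 genes (48.5%). Of the 2540 genes higher at 35 °C, 1110 were also higher at 40 °C and 716 were lower there. The 1110 are 43.7% of the one list and 12.9% of the other. Of the 3223 lower at 35 °C, 1500 were lower and 1080 higher at 40 °C, the 1500 being 46.5% and 21.9% of the 2 lists.

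Light-harvesting genes went in opposite directions at the 2 temperatures. Light-harvesting genes were lower in 8 and higher in 0 of 17 cases at 35 °C, and higher in 13 and lower in 2 at 40 °C, and the difference was called in 13. MSTRG.6506 fell at 35 °C but went from 361 ± 8.34 to 2265 ± 8.44 FPKM at 40 °C (difference of the log2 effects 2.94 ± 0.03, adjusted p = 8.2e-17). WRKY genes, higher at 35 °C in 23 cases, were higher in 15 and lower in 18 at 40 °C, and the difference was called in 34 of 59. Of all tested genes, 32.9% were higher and 26.2% lower at 40 °C, and 48.5% had a called difference. The WRKY counts at 40 °C lay not far from these shares. Cytosolic ribosomal protein genes fell at both temperatures, in 71 and 86 of 136 cases.

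Single members show both patterns. Nitrite reductase rose from 19.04 ± 0.375 to 30.5 ± 2.43 FPKM at 40 °C, a smaller rise than at 35 °C (difference -2.75 ± 0.11, adjusted p = 9.9e-11). The ERF02 gene had a log2 fold change of 0.03 ± 0.03 at 40 °C (difference -1.38 ± 0.04), relative to the zero point of TMM scaling. Its deposited FPKM at 40 °C were 511, 486 and 510 without and 588, 583 and 587 with melatonin, higher and without overlap. HSF B3 fell at 40 °C with a log2 change of -1.86 ± 0.07 (difference -3.52 ± 0.10, adjusted p = 2.8e-12). PIP2-4-like rose at both (2.02 ± 0.13 at 40 °C, difference 0.32 ± 0.17, adjusted p = 0.14), as did peroxidase 2 (2.67 ± 0.12, difference 0.22 ± 0.15, adjusted p = 0.26). The PIP2-4-like level at 40 °C was low, with 0.983, 1.51 and 1.60 FPKM without and 5.51, 6.37 and 7.21 FPKM with melatonin. Expansin-A1 fell from 247 ± 6.02 to 5.27 ± 0.713 FPKM at 40 °C after its rise at 35 °C.

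**Figure D4:**
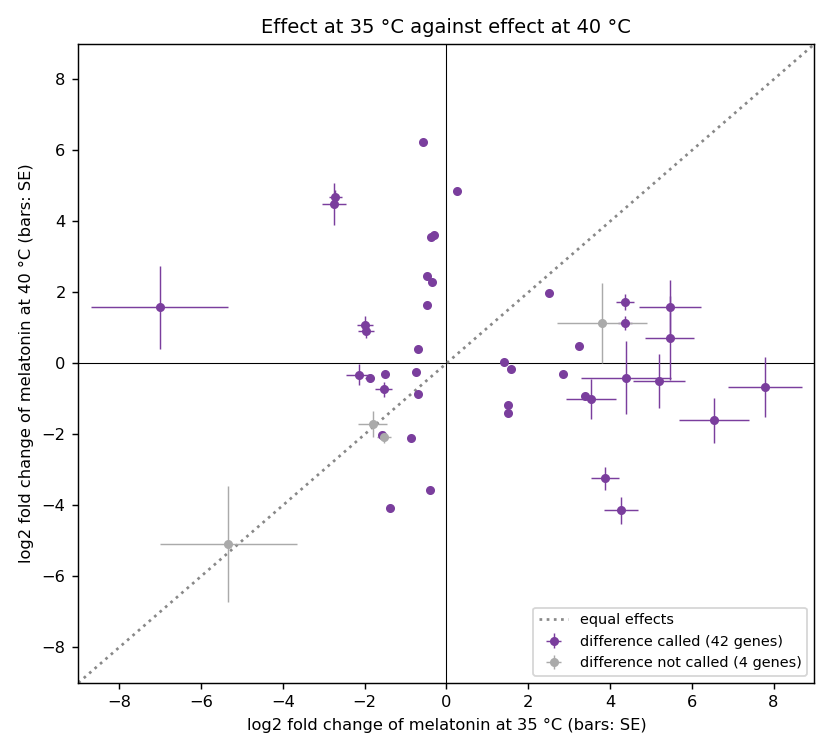
Log2 fold change of melatonin at 35 °C against that at 40 °C, with standard errors, for the 46 genes named by the size or adjusted p of the effect at 35 °C or by the difference between temperatures; the dotted line marks equal effects. The difference was called for 42 genes (purple) and not for 4 (grey), and the genes picked by the difference were bound to be among the 42.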

How the data were processed

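The deposited table gives, per gene, a count and an FPKM value for each library. Per the submitters' processing notes the authors used cutadapt 1.9, HISAT2 2.0.4 and StringTie 1.3.4d. The genome build and whether counting used strand were not given in the sources used here, and coordinates are those of the file. Counts deposited by the authors were tested with edgeR 4.0.16 (TMM, quasi-likelihood, filter on low counts, all 15 libraries in 5 groups sharing 1 spread estimate) in R 4.3.3, with Benjamini-Hochberg adjustment over 26183 of 29985 genes. Errors of log2 fold changes are standard errors. FPKM values, normalized by the authors, describe levels. Alternatives were DESeq2 1.42.0, limma 3.58.1 on log2(FPKM + 1) or log2(FPKM + 0.1), other scalings and filters, a replicate block, and leaving out each library.

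Gene lists match words in the product descriptions. Members and lists were chosen with earlier results of these data known. The word patterns were also tightened after matches, and then after counts and fold changes, had been seen: entries that did not belong were taken off the class III peroxidase, photosystem, starch and sucrose, and metal transport lists. For class III peroxidases this removed genes called lower and none called higher, which raised the share of rises. For the photosystem and the starch and sucrose lists it removed more rises than falls, which raised the share of falls. Lists therefore carry no test. The 28 groups and 12 genes plotted were also picked after values were seen. Named genes were the 12 largest rises and falls among described genes of at least 5 FPKM with separate groups, the 8 smallest adjusted p per direction and for the difference between temperatures, up to 4 called members of a list per direction, and all tryptophan pathway, heat stress factor and aquaporin genes. Genes with no gene name in the table (5.25% to 5.58% of counts at 35 °C) are assembled transcripts and were kept. In all, 6 value columns that match no sample were not used. No pairing by replicate number was seen: deviations of same-numbered libraries correlated at 0.01, -0.04 and 0.00 over 17410 genes. Those of differently numbered libraries correlated at -0.03 to 0.04. A pairing that touches only some genes could be missed by such values.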

Additional observations from a re-analysis of the deposited data

Results flagged for a closer look

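The effect of melatonin differed between 35 °C and 40 °C in 12694 genes by the test of the difference itself. The 46 genes named by the size or adjusted p of the effect at 35 °C, or by the difference itself, held 19 called in opposite directions with a called difference. Some of the 46 were thus picked for differing between temperatures, so this count is not a share that can be set against all genes. Differences are the log2 effect at 40 °C minus that at 35 °C.

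Genes lower with melatonin at 35 °C and higher at 40 °C were granule-bound starch synthase (MSTRG.5792, 6.80), a pair of sieve element occlusion B-like genes (MSTRG.14865, 7.41, and MSTRG.14869, 7.22), galactinol synthase 1 (MSTRG.20857, 3.91), fatty acid hydroperoxide lyase (MSTRG.6746, 3.92) and an Act d allergen-like gene (MSTRG.3719, 3.07). A methylesterase (MSTRG.5334, 2.87), chlorophyll a-b binding protein 8 (MSTRG.6506, 2.94), a further chlorophyll-binding domain gene (MSTRG.10776, 2.64), Rubisco activase 2 (MSTRG.22136, 2.12) and HSP83-like (MSTRG.5596, 1.09) did the same. At 40 °C MSTRG.14865 had only 0.793, 0.574 and 0.288 FPKM without melatonin, and 14.9, 16.8 and 16.9 FPKM with it.

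Genes higher at 35 °C and lower at 40 °C were daurichromenic acid synthase (MSTRG.16335, -8.40), a peroxidase (MSTRG.14359, -8.15), SULFUR DEFICIENCY-INDUCED 1-like (MSTRG.21891, -7.12), the undescribed MSTRG.4147 (-4.29) and MSTRG.13569 (-3.14), DMR6-like oxygenase 2 (MSTRG.19800, -2.90), perakine reductase (MSTRG.9362, -2.67) and aquaporin TIP1-1-like (MSTRG.1618, -1.74). For MSTRG.1618 the fall at 40 °C (log2 change -0.17 ± 0.05) was not seen in the deposited FPKM, which at 40 °C were 56.8, 60.6 and 61.9 without and 60.5, 61.6 and 60.3 with melatonin and overlap. MSTRG.13569 had 28.3 ± 2.46 FPKM without and 26.4 ± 1.18 FPKM with melatonin at 40 °C. MSTRG.19800 and MSTRG.9362 each join several gene names in the deposited table.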

How the results depend on the processing

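With edgeR on all libraries 5763 genes were called at 35 °C, 2540 higher and 3223 lower. A call rule of 2-fold as well left 1204 (1028 higher, 176 lower), and an adjusted p under 0.01 left 3704 (1582 higher, 2122 lower). On log2(FPKM + 1), limma called 4630 higher and 2118 lower, and on log2(FPKM + 0.1) 4169 and 1926, where the median of all genes was 0.06 and 0.09. RLE, upper-quartile factors, the filters, DESeq2 and the fit to 6 libraries stayed within 1.5 times the main counts (5060 to 6541 called). Without each library in turn 4608 to 4948 genes were called, 2012 to 2438 higher and 2401 to 2704 lower, and the difference between temperatures gave 11851 to 12166. The replicate block gave 4787 genes with 6 libraries and 5455 with 15, and no pairing by number was seen. Of the named genes that were called, limma on log2(FPKM + 1) kept 469 and lost 35, and DESeq2 kept all 502 to which it gave a value. Leaving out each library in turn lost 22 to 39 of these calls, and the replicate block with 6 libraries lost 37. The effect of the proline-rich protein 4-like gene Rhsim05G0063000 vanished in 1 fit. This gene had reads in 1 of the 6 libraries. Leaving out each library gave fitted log2 fold changes from -7.38 to 0.00, the last without that library. With 3 libraries a side, changes of genes under about 1 FPKM rest on few counts.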
